A study of Homo sapiens with 2 samples.

Results

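The 44 genes described here encode the proteins at the core of the spliceosome: the U1, U2, U4/U6 and U5 small nuclear ribonucleoproteins (snRNPs), the Sm ring they share, the factors that read the branch point and 3′ splice site, and the PRPF19 complex with its partners. They were chosen by name, and a transcript model belonged to a gene where its RefSeq identifier mapped to that gene or where it shared an exact intron with it on the same strand. All 44 were found in both libraries, among 21345 genes with at least 300 bases of RefSeq exon. They carried 96 models in the knockdown-labelled library, 28 of them assembled anew, and 97 in the control library, 29 of them assembled anew.

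Both libraries are poly(A) RNA of the colorectal carcinoma line HCT116 (human), which here carried a tetracycline-inducible construct against USP49, a deubiquitinase of histone H2B. One library is labelled USP49 knockdown and one control. The protocol text, identical for both, puts the harvest 36 h after doxycycline, and the series title calls the reference cells wild type. There was 1 library per group, so every difference is between these libraries, no test was possible, and all intervals cover counting error only. The libraries held 19931690 fragments (labelled knockdown) and 16350300 fragments (control).

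The label could not be checked with USP49 itself, on chromosome 6 at 41873361 to 41971077 (hg18, as all positions below). Density on its RefSeq exons was 1.11 FPKM in the knockdown-labelled library (95% Poisson interval 0.861 to 1.4) and 0.909 FPKM in control (0.667 to 1.21). The sum over its named models was 1.11 FPKM in the knockdown-labelled library and 2.89 FPKM in control, in the other direction. Those sums came from 69 and 206 fragments. Unspliced models without a name, within 5000 bases of its 3′ end, held 168 fragments in the knockdown-labelled library and 0 in control. Their part in the difference by the sum was not tested. Here FPKM means fragments per kilobase divided by the library totals above, on the customary scale. The library is therefore called by its label throughout. Epithelial markers were present in both: KRT19 had 296 FPKM in the knockdown-labelled library and 330.0 in control, EPCAM 148 and 156. VIL1, another epithelial marker, was listed at 0 in both. Of 5 markers of other cell types, PTPRC and HBB were at 0 in both, PECAM1 and ALB had 5 fragments or fewer in each library, and the fibroblast collagen gene COL1A1 had 6.57 FPKM in the knockdown-labelled library and 6.90 in control.

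As background, introns are recognised when U1 snRNP pairs with the 5′ splice site while SF1 and the U2AF heterodimer bind the branch point and 3′ splice site. U2 snRNP then replaces SF1 at the branch point. The U4/U6.U5 tri-snRNP joins next, U1 and U4 leave, and the PRPF19 complex stabilises the catalytic centre. Several genes of this machinery are known to make more than 1 protein by alternative splicing of their own transcripts.

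Levels were almost the same in the libraries. Exon density, the fragments of all models lying on the RefSeq exons of a gene expressed in FPKM, had a median over the 44 genes of 61.8 FPKM in the knockdown-labelled library and 62.7 FPKM in control. The median over all 12077 genes measured (a mean over both libraries of at least 1 FPKM) was 13.7 FPKM in the knockdown-labelled library and 13.8 FPKM in control. Together the 44 genes held 178585 fragments on exons in the knockdown-labelled library and 147403 in control, which is 0.896% and 0.902% of each library. The depth-scaled ratio of these sums was 0.994 (exact binomial interval 0.987 to 1.00). The density spreads the fragments of a model evenly over its length, since the files hold no read positions.

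With a pseudocount of 1 FPKM, the median log2 ratio of the 44 genes was −0.00 (labelled knockdown over control), as it was over all genes measured. The ratios ran from −0.26 to 0.17, and 32 of 44 (72.7%) lay within 0.1 of no difference, against 60.1% of all genes and 64.5% of genes in the same range of density. A size of 1.2-fold was used to call a gene. It was passed by 0 members upward and 1 downward, SNRPG, while 2.22% of all genes were past it upward and 3.90% downward. So 2.27% of the members were past 1.2-fold, against 6.12% of all genes. All 44 members had a mean of at least 5 FPKM. Among 9316 genes at or above that mean, 1.34% were past 1.2-fold upward and 2.34% downward. Past 2-fold were 0 members, against 0.298% of all genes upward, 0.497% downward and 0.795% in either direction.

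**Figure D1:**
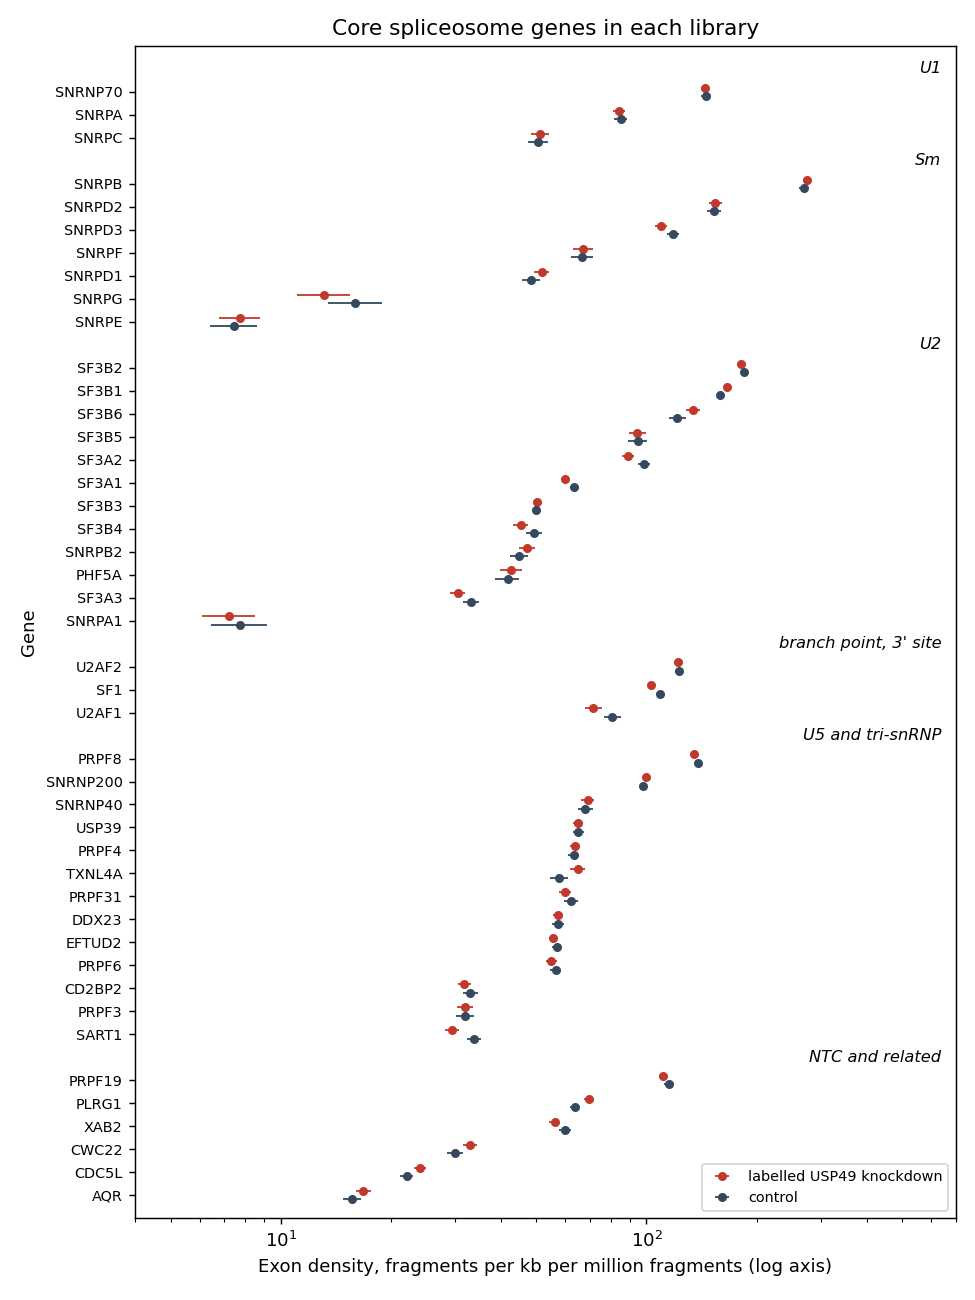
Exon density of each gene (FPKM, log axis) in the library labelled USP49 knockdown (red, upper point of each pair) and in control (dark blue), grouped by snRNP and sorted by level. Bars are 95% Poisson intervals of the fragment number; SNRPB is highest at 274 and 269 FPKM, and the paired points lie close together for nearly every gene.

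A second measure, the sum of the depth-scaled values over all models named for a gene, gave a different picture. By it 6 members were past 1.2-fold upward and 6 downward (27.3% in either direction), beside 9.87% and 11.6% of all genes (21.5% in either direction). Past 1.4-fold were 2 upward and 4 downward, beside 4.57% and 5.16% of all genes (9.72% in either direction). The upward pair was SNRPF at a log2 ratio of 0.60 and SF3B3 at 0.52. The downward genes were SF3B4 at −0.66, SF3A3 at −0.59, U2AF1 at −0.51 and SART1 at −0.49. By exon density the same 6 genes lay between −0.19 and 0.01.

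The measures part where the assemblies chose different models. In 20 members (45.5%) the models with 5% or more of the fragments had the same introns in both libraries, as in 40.2% of all genes measured. By exon density 0 of these 20 were past 1.2-fold upward and 1 downward, beside 1.03% and 2.45% (3.48% in either direction) of all genes with the same introns in both. Of the 12 members past 1.2-fold by the sum, 2 belonged to these 20, SNRPG and TXNL4A. In SF3B4 the control library added a 914-base assembled model with 28.2% of the fragments, and the knockdown-labelled library listed the RefSeq model alone. A short model gives more value per fragment, so the sum for SF3B4 was 45.2 FPKM in the knockdown-labelled library and 72.2 FPKM in control from 1755 and 1701 fragments. SNRPF shows the opposite case, with a 344-base model added in the knockdown-labelled library that held 33.1% of its fragments.

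**Figure D2:**
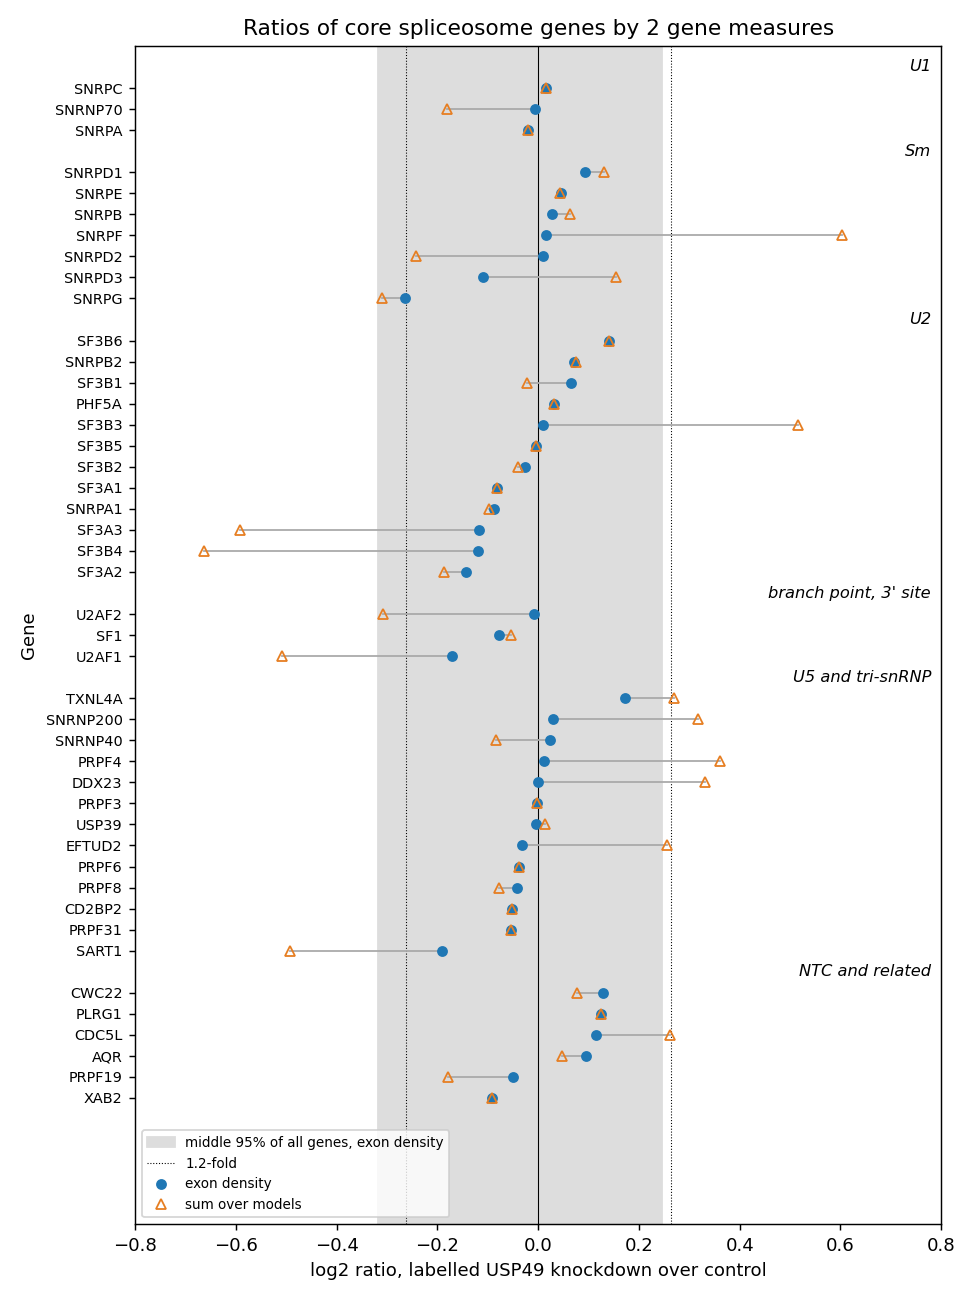
Log2 ratio, library labelled USP49 knockdown over control, of each gene by exon density (filled circles) and by the sum over named models (open triangles), grouped by snRNP. The grey band holds the middle 95% of all genes by exon density (−0.32 to 0.25) and dotted lines mark 1.2-fold; circles stay inside the band while triangles reach −0.66 and 0.60.

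The U1 proteins were level. SNRNP70, which encodes the U1-70K protein that holds the first stem-loop of U1 RNA, lies on chromosome 19 at 54280277 to 54303682. Its exon density was 145 FPKM in the knockdown-labelled library (141 to 149) and 145 FPKM in control (141 to 150). SNRPA, which binds the second stem-loop, had 83.9 FPKM in the knockdown-labelled library and 85.1 FPKM in control, a log2 ratio of −0.02 and the lowest of the 3. SNRPC, which steadies pairing with the 5′ splice site, had 51.1 FPKM in the knockdown-labelled library and 50.5 FPKM in control, a log2 ratio of 0.01 and the highest. By the sum over models SNRPA and SNRPC gave −0.02 and 0.01, each on 1 RefSeq model in both libraries, and SNRNP70 gave −0.18, from 143 FPKM in the knockdown-labelled library and 162 FPKM in control. SNRPC has 18 processed or other pseudogenes named after it in GENCODE release 29, so its fragments may be divided among copies.

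The SNRNP70 difference by the sum came with different models of 1 intron, at 54296541 to 54299702 (3162 bases). All 5344 named fragments of the knockdown-labelled library were on the RefSeq model. Beside it stood 1 unspliced model without strand or name, at 54296333 to 54300544, which spans the whole intron and held 1494 fragments. In control the RefSeq model held 66.4% of the value. A control model with 15.3% of the value (558 fragments) included a 60-base exon at 54297183 to 54297242, and another with 18.3% (643 fragments) used a 3180-base intron from the same donor. Both introns around the 60-base exon match by length the introns of a GENCODE transcript annotated for nonsense-mediated decay, whose coding part ends after 23 bases of the exon. That coding part, read from the GENCODE transcript (GRCh38, plus strand of chromosome 19), follows 30 bases of the upstream exon, with capitals for the inserted bases:

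SNRNP70 inserted exon: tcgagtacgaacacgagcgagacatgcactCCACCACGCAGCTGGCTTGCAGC

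Counting every model, this intron had a density of 17.8 FPKM in the knockdown-labelled library and 6.05 FPKM in control, which is 12.3% and 4.16% of the exon density. The ratio was 2.94 (2.59 to 3.34). The 3 unspliced pieces in control held 30, 238 and 21 fragments, and stretches between them had no model, and the part of the assembly in this ratio was not tested.

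The Sm proteins, which form a ring of 7 around each of the U1, U2, U4 and U5 snRNAs, had a median log2 ratio of 0.01 by exon density. The highest was SNRPD1 at 0.09, with 51.7 FPKM in the knockdown-labelled library and 48.4 FPKM in control, and 0.13 by the sum. The lowest was SNRPG, on chromosome 2 at 70362010 to 70374373, with 13.1 FPKM in the knockdown-labelled library (11.0 to 15.5) and 16.0 FPKM in control (13.4 to 18.9). Its log2 ratio of −0.2648 lies just past the 1.2-fold line, which is 0.263 in size. By the sum SNRPG had 12.7 FPKM in the knockdown-labelled library and 16.0 FPKM in control. The difference rests on 139 fragments in each library, and the interval of the depth-scaled fragment ratio of 0.822 runs from 0.644 to 1.05, so it is within counting error.

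Levels of the Sm genes were unequal, though their proteins stand in the ring in equal number. SNRPB was the highest of all 44 genes, with 274 FPKM in the knockdown-labelled library and 269 FPKM in control. SNRPE was the lowest Sm gene, with 7.73 FPKM in the knockdown-labelled library and 7.47 FPKM in control, a span between these genes of 35.5-fold and 36.1-fold. SNRPD2 had 154 FPKM in the knockdown-labelled library and 153 FPKM in control, SNRPD3 109.7 and 118 FPKM, and SNRPF 67.3 and 66.6 FPKM. In control 34.3% of the SNRPD3 fragments were on a model reaching 2817 bases past the RefSeq 3′ end. The log2 ratio of SNRPD3 was −0.11 by exon density and 0.15 by the sum, the other direction. With models of the gene's strand only it was −0.03. GENCODE names 20 pseudogenes after SNRPG, 9 after SNRPE, 4 after SNRPF and 2 after SNRPD2, so the low values of SNRPG and SNRPE are uncertain. The part of such copies was not tested.

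SNRPB, on chromosome 20 at 2390281 to 2399499, makes the SmB and SmB′ proteins of 231 and 240 residues by a choice of the last acceptor. The forms share the last donor and differ in the end of the coding sequence. Those ends are shown here because the libraries can be compared on them directly. They are GENCODE transcripts on GRCh38, minus strand, with the last exon's coding bases, stop codon left out, in capitals after 30 shared bases:

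SmB: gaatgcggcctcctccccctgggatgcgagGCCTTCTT
SmB′: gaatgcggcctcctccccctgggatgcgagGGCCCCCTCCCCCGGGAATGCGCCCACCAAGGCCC

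The SmB′ junction took 47.5% of the value at that donor in the knockdown-labelled library and 44.4% in control. By fragments the shares were 47.8% (46.6 to 49.1) in the knockdown-labelled library and 43.9% (42.5 to 45.3) in control. Here and below, intervals of shares take the assembler's division of fragments among forms as observed. They leave out the error of that division, and so are too narrow. Both measures put SmB′ higher in the knockdown-labelled library, by 3.09 and 3.93 points. Another SNRPB form, in both libraries, joined a RefSeq acceptor to a donor outside RefSeq, by an intron at 2392546 to 2393989. It took 18.0% of the value at its acceptor in the knockdown-labelled library and 15.8% in control, and GENCODE has no intron of that length in the gene.

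The U2 group has the U2-specific proteins and the SF3A and SF3B complexes that hold the branch point, 12 genes in all, with a median log2 ratio of −0.02. SF3B6, whose protein touches the branch adenosine region, was highest at 0.14, with 134 FPKM in the knockdown-labelled library (128 to 140) and 122 FPKM in control (115 to 128). SF3A2 was lowest at −0.14, with 88.9 FPKM in the knockdown-labelled library (85.7 to 92.3) and 98.3 FPKM in control (94.5 to 102). Counting error alone does not cover either difference: the fragment ratios were 1.10 (1.03 to 1.18) and 0.905 (0.858 to 0.955). Both lie inside the middle 95% of all genes, and by the sum the log2 ratios were 0.14 and −0.19.

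SF3B1, the scaffold that clamps the branch helix, had 166 FPKM in the knockdown-labelled library and 158 FPKM in control. SF3B2 had 182 FPKM in the knockdown-labelled library and 185 FPKM in control, and SF3B3 50.1 and 49.8 FPKM. SF3A1 had 59.9 FPKM in the knockdown-labelled library and 63.5 FPKM in control, and shares exonic bases with CCDC157. SF3A3 (30.5 and 33.2 FPKM) and SF3B4 (45.2 and 49.2 FPKM) each had a log2 ratio of −0.12. SF3B5, whose gene has no intron, had 94.5 FPKM in the knockdown-labelled library and 94.8 FPKM in control, and PHF5A had 42.6 and 41.7 FPKM.

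The U2-specific pair differed in level. SNRPB2, which binds U2 RNA, had 47.1 FPKM in the knockdown-labelled library and 44.8 FPKM in control, a log2 ratio of 0.07 by either measure. SNRPA1, its binding partner, on chromosome 15 at 99639238 to 99652983, had 7.22 FPKM in the knockdown-labelled library (6.09 to 8.49) and 7.73 FPKM in control (6.45 to 9.20), the lowest mean of the 44 genes. Its log2 ratio was −0.09 by exon density and −0.10 by the sum.

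SNRPA1 stood apart in its structure. Its RefSeq model was listed at 0 in both libraries. Every named SNRPA1 model above 0 kept the intron at 99643530 to 99643941 (412 bases) inside an exon. The density over that intron was 8.13 FPKM in the knockdown-labelled library and 7.09 FPKM in control, or 113% and 91.7% of the exon density, a ratio of 1.15 (0.779 to 1.69) that counting error covers. Unspliced assembled models over all its introns together had 25.1% of the exon density in the knockdown-labelled library and 17.8% in control.

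Of the 3 factors at the 3′ end of the intron, all had log2 ratios below 0, with a median of −0.08. Of 12077 genes measured, 6209 were also below 0. U2AF1, which reads the AG of the 3′ splice site, lies on chromosome 21 at 43386135 to 43400757. It had 71.6 FPKM in the knockdown-labelled library (67.9 to 75.5) and 80.7 FPKM in control (76.4 to 85.3), the lowest ratio of the 3 at −0.17. These intervals do not overlap, but they do not cover how fragments are spread over unlike models. U2AF1 had 1389 fragments on exons in the knockdown-labelled library and 1284 in control. Its named models held 1545 and 1310 fragments. U2AF2, which binds the polypyrimidine tract, had 122 FPKM in the knockdown-labelled library and 123 FPKM in control, the highest ratio at −0.01. SF1, the branch point binding protein, had 103 FPKM in the knockdown-labelled library and 109 FPKM in control.

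U2AF1 chooses between a pair of 67-base coding exons that exclude each other, at 43393632 to 43393698 and, 5′ of it in the gene, at 43394545 to 43394611. Their sequences are shown since the choice swaps part of the protein without a change in length, 240 residues either way. They are from GENCODE on GRCh38, minus strand, with capitals at the 23 positions where they differ:

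U2AF1 3′ exon: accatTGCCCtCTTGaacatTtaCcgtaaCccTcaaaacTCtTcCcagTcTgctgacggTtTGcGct
U2AF1 5′ exon: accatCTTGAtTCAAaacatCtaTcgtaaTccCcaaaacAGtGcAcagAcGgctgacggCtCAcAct

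The 5′ exon took 25.9% of the value in the knockdown-labelled library and 35.7% in control at the acceptor that both exons join. By fragments it took 28.4% (26.2 to 30.7) in the knockdown-labelled library and 27.7% (25.2 to 30.1) in control. The direction of the U2AF1 difference thus depended on the measure. In the knockdown-labelled library the 5′ exon was on the 953-base RefSeq model (439 fragments). In control it was on assembled models only, of 712 and 370 bases (212 and 151 fragments). In both libraries U2AF1 models used an intron outside RefSeq at 43387073 to 43387649, with 52.0% of the value at its donor in the knockdown-labelled library and 27.4% in control. By fragments that intron had 40.9% (38.4 to 43.4) in the knockdown-labelled library and 21.7% (19.2 to 24.4) in control, so the difference was in the same direction.

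U2AF2, on chromosome 19 at 60857228 to 60877894, has RefSeq forms that differ by 12 bases at the end of an exon, from a choice of donor. The 99-base exon is printed from GENCODE (GRCh38, plus strand) to show the segment, in capitals, that the shorter form lacks:

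U2AF2 exon: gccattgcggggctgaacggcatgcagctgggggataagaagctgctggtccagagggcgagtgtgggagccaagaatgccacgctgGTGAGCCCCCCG

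The junction without the 12 bases had 81.5% of the value in the knockdown-labelled library and 77.8% in control. By fragments it had 81.4% (80.5 to 82.3) in the knockdown-labelled library and 72.9% (71.8 to 74.0) in control. These intervals count all 7483 and 6257 U2AF2 fragments as divided by the assembler, though the forms differ by 12 bases only. Both measures put this U2AF2 junction, that of the form of 471 residues, higher in the knockdown-labelled library than in control. The RefSeq model of that form held all of it in the knockdown-labelled library. In control that model had 48.5% of the U2AF2 value and 59.0% of the fragments. The rest of the junction in control was on a 1247-base U2AF2 model, with 29.3% of the value and 4 introns outside RefSeq. The knockdown-labelled library did not list that model.

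SF1, on chromosome 11 at 64288652 to 64302892, has proteins of 548 and 639 residues that part at the last acceptor. The first 62 coding bases after that junction are printed in capitals, after 30 shared bases (GENCODE, GRCh38, minus strand):

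SF1 shorter end: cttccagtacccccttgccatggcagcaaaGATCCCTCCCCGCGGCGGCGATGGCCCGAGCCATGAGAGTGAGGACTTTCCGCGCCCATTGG
SF1 longer end: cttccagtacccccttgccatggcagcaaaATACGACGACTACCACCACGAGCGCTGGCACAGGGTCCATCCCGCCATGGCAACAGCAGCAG

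The shorter SF1 end had 58.5% of the value in the knockdown-labelled library and 58.1% in control. By fragments it had 58.0% in the knockdown-labelled library and 49.8% in control, where the longer end was carried by a 3586-base model instead of a 3008-base one.

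The 13 genes of U5 and the tri-snRNP had a median log2 ratio of −0.01, and 11 of them lay within 0.1 of no difference. PRPF8, the scaffold of the catalytic centre, had 135 FPKM in the knockdown-labelled library and 139 FPKM in control. SNRNP200, the helicase that unwinds U4 from U6, had 99.8 FPKM in the knockdown-labelled library and 97.7 FPKM in control, and EFTUD2, the GTPase of U5, had 55.5 and 56.8 FPKM. TXNL4A, the small thioredoxin-fold protein of U5, was highest at 0.17, with 65.0 FPKM in the knockdown-labelled library (61.9 to 68.1) and 57.6 FPKM in control (54.4 to 60.8). SART1, which helps join U4/U6 to U5, was lowest at −0.19, with 29.4 FPKM in the knockdown-labelled library (28.2 to 30.7) and 33.8 FPKM in control (32.3 to 35.3). The intervals do not overlap between libraries in either gene, but they do not cover how fragments are spread over unlike models. TXNL4A had 1735 fragments on exons in the knockdown-labelled library and 1261 in control. Its named models held 2252 and 986 fragments. For SART1 these numbers were near equal, with 2086 fragments on exons and 2086 on named models in the knockdown-labelled library, and 1962 and 1966 in control. By the sum TXNL4A had 64.8 FPKM in the knockdown-labelled library and 53.6 FPKM in control.

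CD2BP2, which binds TXNL4A during U5 assembly, had 31.8 FPKM in the knockdown-labelled library and 33.0 FPKM in control. The U4/U6 proteins PRPF3, PRPF4 and PRPF31 had log2 ratios of −0.00, 0.01 and −0.05. PRPF31 shares exonic bases with TFPT, and EFTUD2 with HIGD1B. The helicase DDX23, which displaces U1, had 57.3 FPKM in both libraries. USP39, a tri-snRNP protein of the ubiquitin protease fold, had 65.0 FPKM in the knockdown-labelled library and 65.2 FPKM in control. PRPF6 and SNRNP40 had ratios of −0.04 and 0.02.

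By the sum over models 5 of these 13 were past 1.2-fold (21.5% of all genes were, 9.87% upward and 11.6% downward), 4 upward (PRPF4, DDX23, SNRNP200 and TXNL4A, from 0.27 to 0.36) and SART1 downward. Each of these but TXNL4A had assembled models in 1 library with introns that the other did not list. In EFTUD2 (0.26 by the sum), 74.0% of the value in the knockdown-labelled library was on a model with another first intron, at 40327420 to 40328719 on chromosome 17. GENCODE has an intron of that length in coding EFTUD2 transcripts, and control listed the RefSeq EFTUD2 model alone.

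PRPF4, on chromosome 9 at 115077735 to 115095006, has tandem acceptors 3 bases apart at its second exon, which give proteins of 522 and 521 residues. The junction of the longer form is printed with the 3 bases in capitals between 24 bases of each exon (GENCODE, GRCh38, plus strand):

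PRPF4 junction: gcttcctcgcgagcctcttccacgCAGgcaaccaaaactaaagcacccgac

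The form without the 3 bases had 69.6% of the value in the knockdown-labelled library and 81.3% in control. By fragments it had 88.9% (87.8 to 89.9) in the knockdown-labelled library and 81.3% (79.9 to 82.7) in control, the other direction. In the knockdown-labelled library the longer PRPF4 form was carried by an 873-base model only, and in control by the full RefSeq model.

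The TXNL4A models in both libraries included a 2-intron path around an exon outside RefSeq, with introns at 75838690 to 75847589 and 75847739 to 75849227 on chromosome 18. Both match by length introns of a GENCODE transcript annotated for nonsense-mediated decay. That path had 11.0% of the TXNL4A value in the knockdown-labelled library and 46.4% in control, but 31.6% (29.7 to 33.6) and 36.2% (33.2 to 39.3) of the fragments. The models that carried it were 5042 bases long in the knockdown-labelled library, reaching 3472 bases past the RefSeq end, and 925 bases long in control.

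The PRPF19 complex and its partners had the highest median log2 ratio of the groups, 0.10, with 4 of 6 above 0. Of all genes measured, 48.6% were above 0. Of the other spliceosome and assembly genes measured, 41 of 61 were above 0, among them 9 of 12 other PRPF19-related genes. CWC22, which places the exon junction complex protein EIF4A3 on spliced RNA, was highest at 0.13, with 32.9 FPKM in the knockdown-labelled library (31.5 to 34.4) and 30.03 FPKM in control (28.6 to 31.5). PLRG1 was also at 0.13, with 69.6 FPKM in the knockdown-labelled library (67.6 to 71.6) and 63.7 FPKM in control (61.6 to 65.9). CDC5L, a core subunit with Myb-like repeats, had 24.03 FPKM in the knockdown-labelled library and 22.1 FPKM in control. AQR, an intron-binding helicase, had 16.8 FPKM in the knockdown-labelled library and 15.7 FPKM in control. XAB2, a partner of AQR, was lowest at −0.09, with 56.1 FPKM in the knockdown-labelled library and 59.8 FPKM in control. PRPF19, the ubiquitin ligase at its centre, had 111 FPKM in the knockdown-labelled library and 115 FPKM in control.

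Among the splice sites at which every competing form was listed in both libraries, the largest difference under both measures was in CWC22, on chromosome 2 at 180517849 to 180580025. Its first intron had a RefSeq donor and, upstream, a donor outside RefSeq, with an intron at 180566427 to 180580041 that matches by length an intron of coding GENCODE transcripts. The upstream donor had 29.8% of the value at the shared acceptor in the knockdown-labelled library and 75.5% in control. By fragments it had 33.8% (31.8 to 35.8) in the knockdown-labelled library and 75.7% (73.6 to 77.8) in control. So the RefSeq donor was the main one in the knockdown-labelled library and the minor one in control. The model with the upstream donor had 773 fragments in the knockdown-labelled library and 1279 fragments in control. In the knockdown-labelled library it reached 587 bases past the RefSeq 3′ end.

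Across the 44 genes, 26 had an intron chain (the full set of introns of a model) whose share of the value differed by 10 points or more between libraries. That is 59.1% of the members, against 59.0% of 11266 genes measured, so the count is at the background. Among genes with a mean density in the range of the members it was 55.9%. The widest shifts were in EFTUD2 at 74.0 points, CDC5L at 62.1 points and SNRPA1 at 61.8 points, each from a model listed in 1 library only. Among the 44, 14 genes were carried by a single model in both libraries. Where RefSeq gives competing introns at 1 splice site and both libraries carried them, the comparison rests on 6 genes: SNRPB, SNRPB2, U2AF1, U2AF2, SF1 and PRPF4. The last of these to be given is SNRPB2, whose first exon has a pair of donors, and the longer first intron had 48.7% of the value in the knockdown-labelled library and 44.5% in control.

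**Figure D3:**
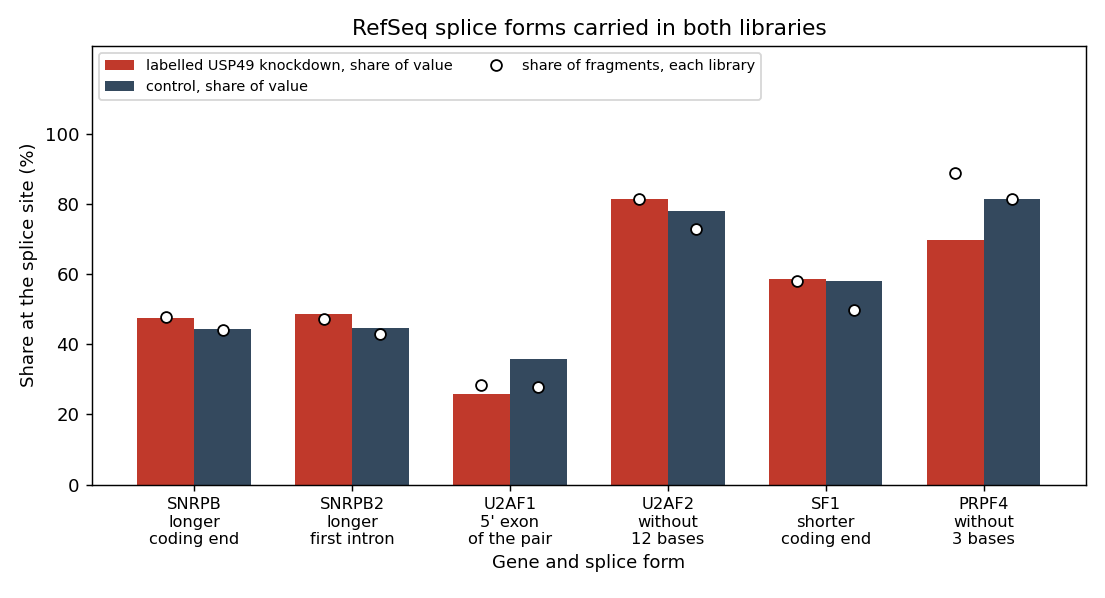
Share of the named splice form at its splice site (%), in the library labelled USP49 knockdown (red) and in control (dark blue), by the value of the models (bars) and by their fragments (white circles). Shown are the 6 genes whose competing RefSeq introns were both carried in both libraries, in some cases by assembled models only. Bars and circles lie together for SNRPB and SNRPB2 and part for U2AF1 and PRPF4, where the direction between libraries turns.

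RefSeq gave the 44 genes 586 introns, of which 565 were carried by a model above 0 in both libraries and 2 in 1 library only. Beyond these, 22 genes had 42 introns outside RefSeq, and 39.4% of genes in the same range of density had at least 1, against 50.0% of the members. Of the 42 introns, 7 were in both libraries, 15 in the knockdown-labelled library alone and 20 in control alone. No such split over all genes is given, so it is not read as a result about the members. An intron listed in 1 assembly is no sign that the other library lacked its reads, since the files hold none. Of the 42, 18 kept a RefSeq donor, 17 kept a RefSeq acceptor, 2 kept neither and 5 joined a pair of RefSeq sites over an exon. For 19 the gene has a GENCODE intron of the same length, in 9 cases in a transcript annotated for nonsense-mediated decay.

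The other single-library forms ran both ways. In the knockdown-labelled library alone, PRPF19 had an assembled form with 53.2% of its value, SNRPE one with 45.8%, DDX23 one with 37.4%, SNRNP200 one with 33.8% and SNRPD1 a pair with 15.8% and 10.8%. SF3B3 had a pair of short forms there with 28.5% and 45.9%, and another pair in control with 43.6% and 37.1%, which left its RefSeq form 25.6% in the knockdown-labelled library and 19.2% in control. In control alone, SNRNP200 had a form with 50.8% that kept a 91-base intron, SART1 one with 44.6%, SNRPD2 one with 35.2%, SF3B1 one with 28.0% and SF3B2 one with 15.9%. The SF3B2 form differed from RefSeq by an acceptor 3 bases on, an intron of 222 bases in place of 219. SNRNP40 and AQR had a different assembled form in each library, and their RefSeq forms had close shares: for SNRNP40 73.2% in the knockdown-labelled library and 70.5% in control, for AQR 87.0% and 84.0%. USP39 was carried by a pair of RefSeq forms in both libraries, the main one with 46.98% in the knockdown-labelled library, where an assembled form took 22.8%, and 71.9% in control.

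No share over all genes is given for the split of the 5 introns that joined RefSeq sites over an exon. Of these 5, 1 was in the knockdown-labelled library alone and 4 were in control alone. The first was in SF3B3, at 69130612 to 69135841 on chromosome 16, on a model of 1563 fragments with 28.5% of that gene's value. Those of control were in SF3A3, PRPF19, CDC5L and the 1247-base U2AF2 model. The exons left out in SF3A3, PRPF19 and CDC5L are printed from GENCODE (GRCh38; minus strand of chromosomes 1 and 11, plus strand of chromosome 6), all in capitals as each is wholly coding and wholly left out:

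SF3A3 exon, 68 bases: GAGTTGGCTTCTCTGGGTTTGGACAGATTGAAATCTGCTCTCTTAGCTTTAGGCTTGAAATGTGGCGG
PRPF19 exon, 77 bases: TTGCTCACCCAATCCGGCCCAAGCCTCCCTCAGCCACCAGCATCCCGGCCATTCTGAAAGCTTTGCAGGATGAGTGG
CDC5L exon, 81 bases: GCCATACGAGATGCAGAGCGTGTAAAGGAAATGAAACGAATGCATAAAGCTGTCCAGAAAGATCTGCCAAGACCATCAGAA

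The CDC5L exon is a multiple of 3 bases long and the others are not. The SF3A3 model had 38.2% of that gene's value in control (204 fragments), the PRPF19 model 42.0% (1468 fragments) and the CDC5L model 50.5% (629 fragments). The knockdown-labelled library listed no such model of these 3 genes. The CDC5L model that lacked the exon in control also held an intron outside RefSeq, at 44505626 to 44514436, that both libraries listed. That CDC5L intron had 62.1% of the value at its donor in the knockdown-labelled library and 50.5% in control, and 37.9% (36.2 to 39.7) and 27.1% (25.3 to 28.9) of the fragments. In SNRPE the form outside RefSeq shared by both libraries had 25.3% of the value in the knockdown-labelled library and 46.9% in control, from 66.9 and 97.6 fragments.

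Intronic signal, from unspliced assembled models inside the introns of a gene, was listed for 9 of the 43 members with introns. In all, 6 members had it in both libraries, 2 (AQR and SF3B3) in the knockdown-labelled library alone and 1 (U2AF1) in control alone. Among 11661 genes taken the same way, 2261 had it in both libraries and 7309 were at 0 in both. Of the rest, 1089 had it in the knockdown-labelled library alone and 1002 in control alone. SNRNP70 had 3.34 FPKM in the knockdown-labelled library and 0.823 FPKM in control, a ratio of 4.06 (3.57 to 4.62). SNRPA1 had 1.81 FPKM in the knockdown-labelled library and 1.38 FPKM in control, a ratio of 1.31 (1.13 to 1.53). PRPF3 had 0.0513 FPKM in the knockdown-labelled library and 0.0939 FPKM in control, a ratio of 0.547 (0.333 to 0.887). USP39 had the lowest ratio of the 6, 0.502 (0.268 to 0.919), from 19 fragments in the knockdown-labelled library and 31 in control. SNRPE and SNRPG had ratios of 1.11 (0.870 to 1.42) and 1.25 (0.818 to 1.94). Of 2114 genes with 10 or more such fragments in both libraries, 14.4% were past 2-fold upward and 16.9% downward (31.4% in either direction), and of the 6 members 1 was past it upward and 0 downward, too few to read against that background. The 34 other members were listed at 0 in both libraries, which says that no such model was assembled.

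**Figure D4:**
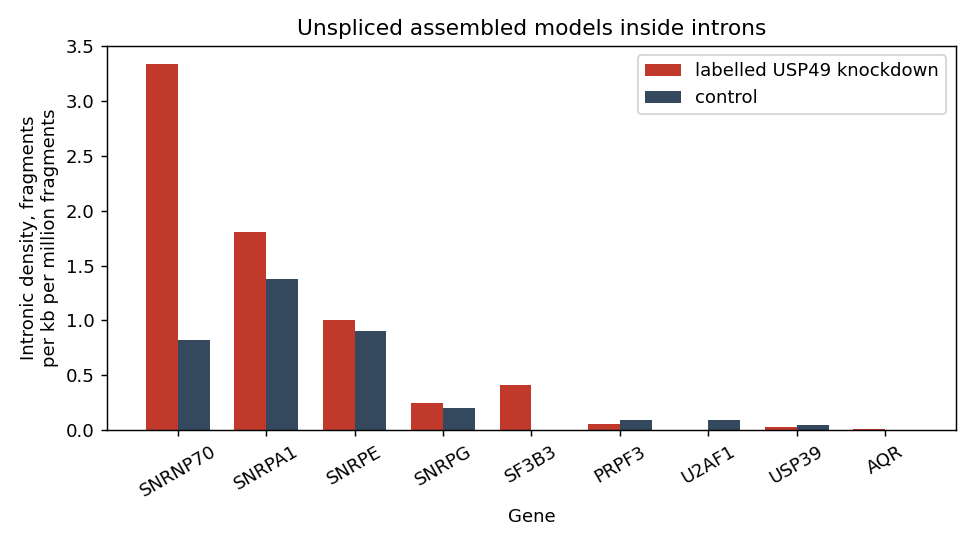
Intronic density of unspliced assembled models (FPKM) in the library labelled USP49 knockdown (red) and in control (dark blue), for the 9 genes with any. SNRNP70 stands apart at 3.34 and 0.823 FPKM, and SNRPA1 and SNRPE follow.

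Other genes of the spliceosome and of snRNP assembly were also near level. Of 66 listed, 61 were measured, 1 was past 1.2-fold upward and 1 downward, beside 2.22% and 3.90% of all genes, and their median log2 ratio was 0.03. Both belong to the minor spliceosome, which removes a rare class of introns. RNPC3, its U11/U12 65K protein, had 6.39 FPKM in the knockdown-labelled library and 4.64 FPKM in control, a log2 ratio of 0.39 from 91.4 and 54.5 fragments. The fragment ratio of RNPC3 was 1.38 (0.977 to 1.97), and its sum over models gave −0.68, the other direction. ZMAT5, the U11/U12 20K protein, had 9.41 FPKM in the knockdown-labelled library and 12.8 FPKM in control, a log2 ratio of −0.40 and a fragment ratio of 0.737 (0.601 to 0.903), with −0.35 by the sum. None of the measured LSM, SMN and methylosome, helicase, other PRPF19-related, U1-associated or cap-binding and export genes (7, 11, 10, 12, 8 and 5) was past 1.2-fold. LSM2, DDX39B and DHX16 were listed at 0 in both libraries, and SMN1, which has a near-identical copy, was under 1 FPKM.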

How the data were processed

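The deposited files were per-library Cufflinks transcript assemblies on hg18, per the file headers and the submitters' processing notes, which also name TopHat, Bowtie, SAMtools, Picard and bedtools; no versions appear in the sources used here. Each model carried a value the authors deposited under the name FPKM, which was not divided by depth: in loci with 1 model, taking the deposited interval as 2 Poisson SDs gave a fragment number whole within 0.02 for 94.2% (labelled knockdown) and 94.5% (control), and the value was proportional to fragments over (length − 47 bases), within 1% for 90.6% and 91.2% of such loci with a RefSeq or spliced model. Fragment numbers were recovered from it and values rescaled to each library's total over chromosomes 1 to 22, X and Y.

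Exon density was the fragments of models of either strand on the union of RefSeq exons (300 bases or more), less 47 bases of length; ratios are log2 with a pseudocount of 1, over genes of mean 1 or more. Splice-site shares were added after the files were seen. Introns were matched to GENCODE release 29 by length within a gene. Intervals are exact (95%): Poisson for levels, binomial for shares and ratios. Shares by fragments take the assembler's division of fragments as observed, so their intervals leave out the error of that division. The members and lists were chosen with earlier results of these data known. Named are the U1 and U2-specific genes, members past 1.2-fold by exon density or 1.4-fold by the sum, the highest and lowest of each group, members with shares differing by 10 points, and list genes past 1.2-fold; others are given for completeness. The exon density step was tested on simulated data. Python 3.11.15 was used with pandas 2.3.3, numpy 2.4.6, scipy 1.17.1 and matplotlib 3.10.9.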

Additional observations from a re-analysis of the deposited data

How the results depend on the processing

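No paired analysis was possible because there was 1 library per group. The counts by exon density of 0 members past 1.2-fold upward and 1 downward were the same, and the median log2 ratio lay between −0.01 and −0.00, with models of the gene's strand, a pseudocount of 0.1, no minimum, a minimum mean of 5, and genes with the same introns in both libraries. The count downward was 0 with scaling to the median ratio over all genes where SNRPG lies just inside the line, and 0 at 2-fold. The sum over named models gave 6 upward and 6 downward. Without scaling to depth, 26 members were past 1.2-fold upward and 0 downward by exon density, beside 47% and 1.09% of all genes. The member median was then 0.28, beside 0.25 over all genes, and SNRPG turned to 0.0025. By the sum, 23 members were then upward and 2 downward. The share of all genes by the sum is not given for this setting, so that count is not read as a result about the members. The USP49 ratio was 0.14 by exon density and −0.88 by the sum; that of its other alternatives ran from 0.14 to 0.28. By fragments in place of value, 25 members in place of 26 had a share differing by 10 points. The 42 introns outside RefSeq all lay on models with 10 or more fragments, and the median intronic log2 ratio of 0.30 over 6 members did not depend on that minimum. The scarce fragments of SNRPG, SNRPE and SNRPA1 limit what can be told of them.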
